A study of Mus musculus with 16 samples.

Results

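The proteasome is the protease that breaks down proteins tagged with ubiquitin, misfolded proteins among them, and neurons depend on it because they cannot dilute such proteins by dividing. Its core particle is a barrel of alpha rings, which gate the entry, and beta rings, which hold the cutting sites. A regulatory particle, made of a base that unfolds substrates with ATP and a lid that removes their ubiquitin, caps the barrel. In immune cells and under interferon, Psmb8, Psmb9 and Psmb10 replace the cutting subunits Psmb5, Psmb6 and Psmb7 and form the immunoproteasome. The levels of the mRNAs of these genes were examined in the mouse hippocampus, in 16 bulk RNA-seq libraries of 1 mouse each.

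The genes were chosen by name: of 54 genes with the Psma to Psmg pattern followed by a digit, 50 were not pseudogenes by name, and 49 of these passed a filter on low counts over the 4 groups of mice, which 17555 of 54532 listed genes passed. Psma8, a testis form of an alpha subunit, had 3 to 15 counts per mouse and did not pass. Psmc3ip shares the name but belongs to meiotic recombination and was set apart, which left 48 genes: 7 alpha and 8 beta ring subunits, 3 immunoproteasome subunits, 9 base and 8 lid subunits, 6 activators or inhibitors and 7 assembly chaperones.

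The 4 groups held 4 mice each: WT mice on plain water, WT mice given nicotinamide riboside (WT + NR), hTau.P301S mice on plain water, and hTau.P301S + NR mice. hTau.P301S mice carry a P301S mutant human tau transgene that the neuronal Thy1 promoter drives. RNA was extracted from hippocampal tissue and not from sorted cells, so the libraries mix cells that express the transgene with cells that do not. NR, a precursor of NAD+, was given at 6 mM in the drinking water for 3 months from 12 months of age, and per the labels the mice were 15 months old at the end. In bulk tissue, fewer cells of a type and less RNA per cell cannot be told apart.

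Each library held between 16490261 and 21915362 counts. All 9 hippocampal neuron markers were detected in every mouse, while choroid plexus markers summed to between 21.7 and 9862 CPM, the read count scaled to library size (TMM-adjusted). The library of hTau.P301S replicate 1 stood apart: 14.4% of its counts were mitochondrial against 4.48 to 7.07% in the other 15, and 19467 genes were detected in it against 22199 to 24918. Proteasome genes took 0.702% of its counts and between 0.273 and 0.397% of the others'. Results that use the untreated hTau.P301S mice are therefore given with and without this mouse.

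In WT mice, core and base subunits had similar levels per base of mRNA, and both were above the assembly chaperones. Levels were divided by the length of the principal mRNA, the longest one where several ranked equally in the annotation. The 14 constitutive core subunits then lay between 23.0 CPM per kb for Psma3 and 104 CPM per kb for Psmb4, with a median of 65.1. The value of Psma3 rests on a length of 2846 bases, against a median of 1201 over the alpha ring. Psmb4, a structural beta subunit, was the highest of all members (104 ± 30.6 CPM per kb, SD, n = 4), followed by Psmc5, an ATPase of the base (103 ± 22.4), and Psmb6, the caspase-like cutting subunit (101 ± 31.7). These 3 levels differed by less than their spread between mice. The median was 62.0 CPM per kb over the base and 46.7 over the lid. Assembly chaperones, which guide the building of the barrel and the base and then leave, had a median of 10.9 CPM per kb.

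Psmb8 and Psmb9 were near the bottom of this order. The immunoproteasome subunits stood at 2.51 ± 1.09 CPM per kb for Psmb8, 2 ± 0.115 for Psmb9 and 22.9 ± 3.91 for Psmb10 (SD, n = 4 WT mice). Of the pair formed by an immunoproteasome subunit and the constitutive subunit it replaces, Psmb8 made up 1.42 to 3.16% in the WT mice, Psmb9 1.35 to 2.73% and Psmb10 24.8 to 28.8%. Psmb10 was thus present at a larger share of its pair than Psmb8 or Psmb9 in every WT mouse. Psmb11, the thymus-specific beta subunit, was the lowest member, with 2, 0, 0 and 1 counts in the WT mice. Levels per kb depend on the length used: over the deposited gene length, which merges all exons, the median was 27.7 CPM per kb over the constitutive core and 31.3 over the base, and Psmb5 and Psmc5 were the highest at 95.6 and 97.5 CPM per kb and Psmb4 was at 63.0.

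Between WT mice, the SD of log2 CPM over the 4 mice had a median of 0.24 over the members and 0.33 over all genes. The genes were not matched by level, so the members are not shown to be steadier than genes of like level. WT replicate 2 was the highest WT mouse for all 14 constitutive core subunits, for example at 174 CPM of Psmb4 against 122, 102 and 93.6, and 116 CPM of Psmb6 against 81.0, 69.4 and 56.9. In the same mouse the slope of log2 CPM was -0.18 per doubling of mRNA length, against -0.03 to 0.04 in the other WT mice. Striatal neuron markers summed to 1464 CPM in it and to 65.3 to 509 CPM in the other 15 mice, and the part of either in its proteasome levels was not tested.

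Promoter sequence was compared because the members moved together between mice. In stress, NFE2L1 (also called NRF1) drives proteasome genes through sites of the antioxidant response type, written here as TGACNNNGC on either strand. RefSeq promoters on GRCm38.p6, from 250 bases before to 50 after the gene start, were matched for 41 of the 48 genes, in 44 windows. The motif occurred in 6 of the 44 windows, or 13.6%, and in 12.4% of all 32851 promoter windows of this length, so its share was close to the background. The matches that lie wholly before the gene start, shown because they include the cutting subunits Psmb5 and Psmb6, read as follows, with the motif in capitals and all sequences 5′ to 3′ along the gene.
Psmb5, chr14:54618025-54618051, minus strand: gtgaagttgTGACGTCGCggcgttgcc
Psmb6, chr11:70525339-70525356, plus strand: taaagagagTGACGGAGC
Psmd9, chr5:123228150-123228176, plus strand: tctagccggTGACCCCGCccacttcca
Psmc6, chr14:45329588-45329614, plus strand, motif on the other strand: cagccagtaGCTAAGTCAggcattgct
Psmd12, chr11:107479278-107479298, plus strand, motif on the other strand: tctGCTGTGTCAcatttgccc

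None of these matches overlapped TGACTCA or TGACGTCA. An interferon-type motif, 2 copies of GAAA with any 2 bases between them on either strand, was found in 11.4% of the member windows, those of Psmd4, Psmd9, Psmb3, Psmg4 and Psme1, and in 3.44% of all windows. The 3 immunoproteasome genes held neither motif in their windows. CCAAT, the site of the factor NF-Y, was found in 31.8% of member windows and 37.4% of all. A match is a stretch of letters only, and factor binding was not measured here.

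The first comparison asked how the proteasome genes differ between hTau.P301S and WT mice without NR. Over all mice, 47 of the 48 members were higher in hTau.P301S mice, with a median log2 fold change of 0.71 against 0.01 over all genes tested. No member passed the limits of the study, an adjusted p under 0.05 (Benjamini-Hochberg, edgeR quasi-likelihood test) with a log2 fold change beyond 0.5, which 36 genes or 0.205% of those tested passed. DESeq2 called 2 members, Psmb2 and Psmb11, of which Psmb11 had few counts in any mouse. The share of all genes that DESeq2 called is not given. At an unadjusted p under 0.05, 29 members were higher and 0 lower, beside 10.9% of all genes higher and 7.24% lower. The 29 include Psmb11, which passed the low-count filter through groups other than WT. The smallest adjusted p over the members was 0.118, for Psmb11, and the next was 0.157, for Psmf1.

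The size of this difference depended on 1 mouse. Without hTau.P301S replicate 1 the median over the members was 0.08, against -0.04 over all genes, and 30 members were higher and 18 lower. At an unadjusted p under 0.05, 8 were then higher and 1 lower, beside 6.52% of all genes higher and 8.35% lower. Psmb11 is among these 8 too. The count of 0 called members was unchanged, and 0.296% of genes were called.

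**Figure D1:**
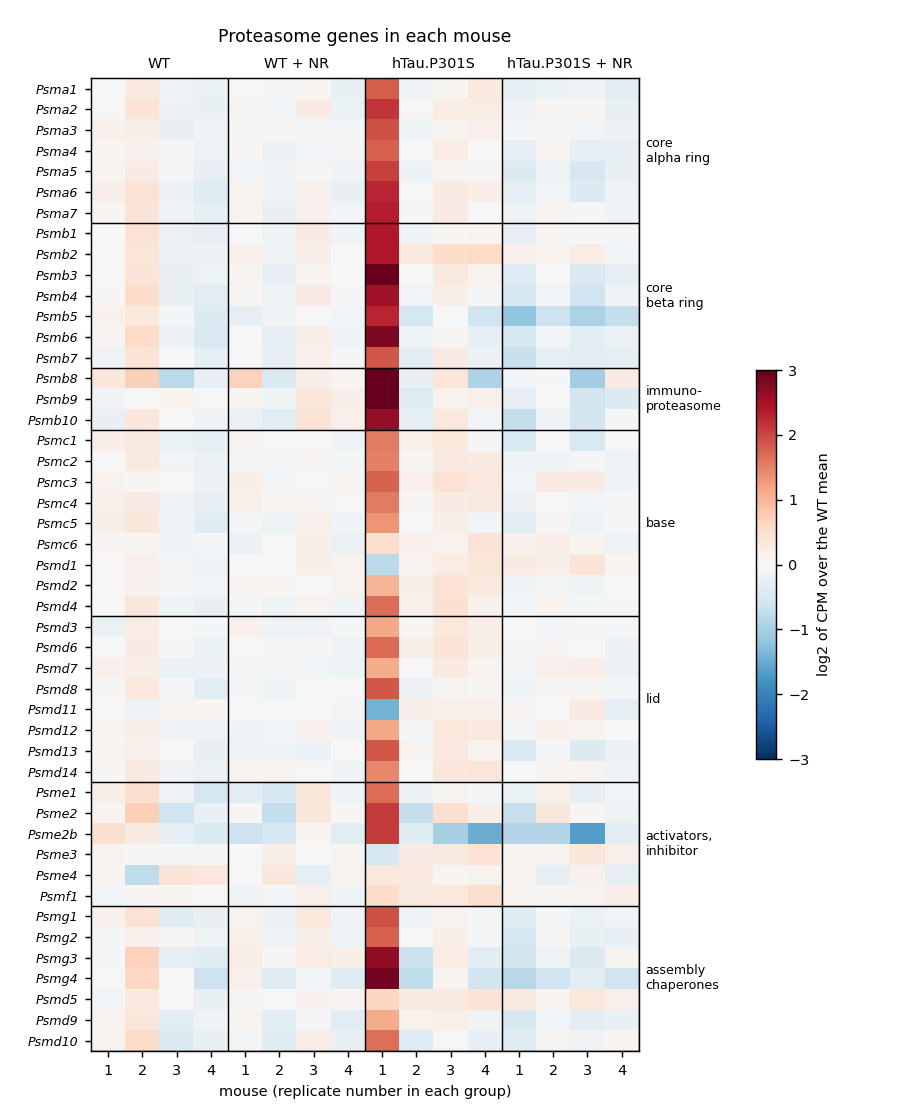
Log2 of the CPM of each proteasome gene in each of the 16 mice relative to the WT mean, by class from core to assembly chaperones. The colour scale ends at 3 in both directions, Psmb11 is left out for its low counts, and the column of hTau.P301S replicate 1 is high for all but a few genes, of which Psmd1, Psmd11 and Psme3 are low.

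In hTau.P301S replicate 1, 44 of the 48 members were higher than in any other mouse and 3 were lower than in any other, while 31.8% of all genes were highest and 35.1% lowest in that mouse. Relative to the other 3 hTau.P301S mice, the median log2 ratio was 1.98 for the alpha ring, 2.52 for the beta ring without Psmb11 and 3.10 for the immunoproteasome. It was 1.31 for the base and 1.11 for the lid. The core thus stood 4.30-fold higher by its median, and the immunoproteasome 8.57-fold. Of the pair with the subunit it replaces, Psmb8 made up 5.07% in that mouse and 1.42 to 5.08% in the other 15. Psmb9 made up 2.45% against 1.35 to 2.73%, so both shares lay within the range of the others. The share of Psmb10 was above it, at 38% against 23.7 to 30.1%. Psmd11, a scaffold subunit of the lid, had 19.6 CPM in that mouse and 59.4, 57.6 and 57.8 CPM in the other hTau.P301S mice. Psmd1, the large scaffold of the base, had 59.9 CPM against 112, 122 and 134, and the nuclear activator Psme3 had 65.9 against 110, 112 and 125.

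The size of the ratio went with mRNA length. Across genes, which are not independent replicates, the log2 ratio of replicate 1 to the other hTau.P301S mice and the log2 length had a Pearson's r of -0.50 over 17538 genes and -0.70 over the 48 members. The 35 members with an mRNA under 2000 bases had a median log2 ratio of 1.92, and the 13 longer ones 0.34. Over all genes these medians were 1.16 and -0.48. Psmd11, Psmd1 and Psme3 have principal mRNAs of 2848, 3112 and 2664 bases. Psma2 (2911 bases) and Psma3 (2846 bases) were higher in that mouse, with log2 ratios of 1.98 and 1.87. Both lengths are of the longest principal transcript, against a median of 1201 bases over the alpha ring. Which transcript the reads came from was not tested, so these genes are uncertain exceptions to the trend. With the trend on mRNA length removed from each mouse, the median log2 ratio was 0.60 over the members and 0.00 over all genes. The class medians were then 0.54 for the alpha ring, 0.98 for the beta ring and for the assembly chaperones, 1.91 for the immunoproteasome, 0.29 for the base and 0.34 for the lid. The part of RNA quality or of library preparation in this mouse was not tested.

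**Figure D2:**
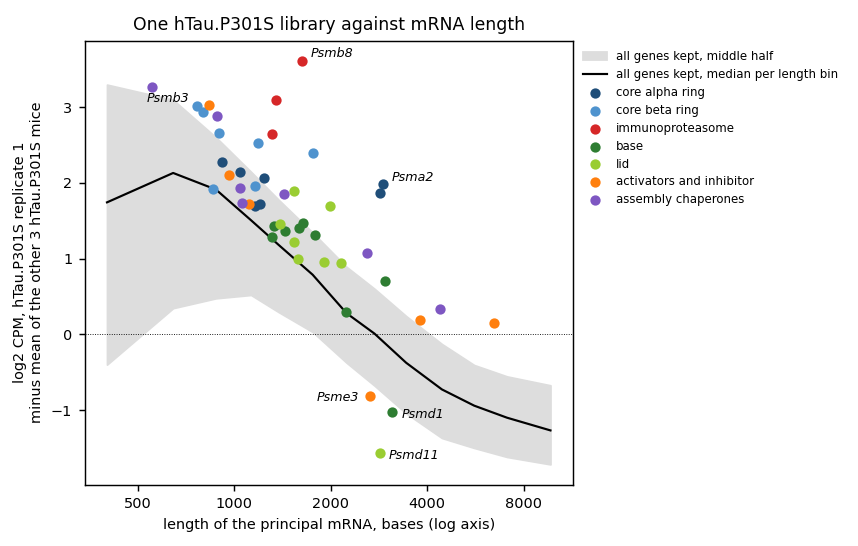
Log2 CPM in hTau.P301S replicate 1 minus the mean of the other 3 hTau.P301S mice (vertical) against the length of the principal mRNA in bases on a log axis (horizontal), with members as points coloured by class and all kept genes as a black median line with their interquartile range in grey. Short mRNAs lie above 0 and long ones below, most members lie above the median line of genes of their length, and Psmd11, Psmd1 and Psme3 lie below it.

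The markers of other cells differed in the same mouse. Against the other hTau.P301S mice the median log2 ratio was -1.11 for astrocyte markers (5 of 8 lowest in that mouse), -1.67 for endothelial markers (5 of 6 lowest) and -0.84 for hippocampal neuron markers (2 of 9 lowest). With the length trend removed the 3 medians were -0.23, -0.91 and -0.60. Oligodendrocyte markers had a median log2 ratio of 0.64 (5 of 8 highest), and of 0.32 with the trend removed. Between hTau.P301S and WT mice, endothelial markers had a median log2 fold change of -0.88 and of -0.77 without that mouse. Both times 3 of 6 were lower at an unadjusted p under 0.05, beside 7.24% of all genes and 8.35% without that mouse. Microglia markers summed to 4427 CPM in hTau.P301S replicate 1 and to 416 to 1049 CPM in the other 15 mice, with 10 of the 13 markers highest in that mouse and 1 lowest. The sums were 416 to 592 CPM in WT, 453 to 1049 in WT + NR, 517 to 873 in the other hTau.P301S mice and 589 to 851 in hTau.P301S + NR, and no microglia marker was at 0 in any mouse. With the length trend removed, the median log2 ratio of these markers in replicate 1 was 1.40. The interferon response list of 18 genes had a median ratio of 0.25 in it, with 5 genes highest and 5 lowest. The part of these cells' RNA in the proteasome levels was not tested.

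Among single members between hTau.P301S and WT mice, those with the smallest p were Psmb11, Psmf1, Psmb2, Psmd2, Psmc3, Psmd5, Psmb3 and Psmd6. Psmf1, an inhibitor that binds the end of the core particle, was at 49.1, 40.2, 41.7 and 47.2 CPM in the hTau.P301S mice and at 31.6, 35.1, 34.3 and 33.4 in the WT mice. The groups did not overlap, and replicate 1 was only slightly above the others. The log2 fold change of Psmf1 was 0.41 ± 0.11 (SE, adjusted p = 0.157, edgeR) and 0.35 ± 0.10 without replicate 1 (adjusted p = 0.136). DESeq2 gave adjusted p = 0.0154, and 0.0271 without replicate 1, both with a fold change under the limit. Over the 23 alternatives the adjusted p of Psmf1 ran from 0.0154 to 0.598.

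Psmd2, the scaffold of the base that receives ubiquitin carriers, was at 380, 214, 255 and 232 CPM in hTau.P301S mice and at 192, 205, 182 and 178 in WT mice. Its groups did not overlap either. The first mouse was the highest, so leaving it out could not change this. The log2 fold change was 0.51 ± 0.16 (adjusted p = 0.186, edgeR) and 0.30 ± 0.09 without that mouse (adjusted p = 0.166). Over the 23 alternatives its adjusted p ran from 0.0187 to 0.598. The lowest came from DESeq2 without that mouse, with a fold change under the limit.

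Psmb2, a structural beta subunit, was at 247, 57.8, 68.2 and 70.8 CPM in hTau.P301S mice against 46.6, 60.0, 41.8 and 41.5 in WT mice. Only 1 pair of mice crossed: hTau.P301S replicate 2 lay under WT replicate 2. The log2 fold change was 1.22 ± 0.36 (adjusted p = 0.173, edgeR) and 0.46 ± 0.14 without replicate 1 (adjusted p = 0.16). With the trend on mRNA length removed, an alternative chosen after seeing the data, Psmb2 passed the limits with a log2 fold change of 0.63 ± 0.11 (adjusted p = 0.0167, edgeR) and without replicate 1 of 0.62 ± 0.11 (adjusted p = 0.021). Over the 23 alternatives its adjusted p ran from 0.0167 to 0.598.

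Psmc3, an ATPase of the base, was at 404, 130, 160 and 148 CPM in hTau.P301S mice and 127, 126, 119 and 105 in WT mice, without overlap. Its log2 fold change was 0.82 ± 0.28 (adjusted p = 0.217, edgeR) and 0.29 ± 0.12 without replicate 1. The base chaperone Psmd5 had a log2 fold change of 0.39 ± 0.13 (adjusted p = 0.218) and of 0.29 ± 0.12 without that mouse. Psmb3, a beta subunit, was at 531, 60.1, 72.8 and 63.9 CPM against 59.0, 78.4, 51.4 and 53.7, and the lid subunit Psmd6 was at 234, 81.3, 93.8 and 80.4 against 72.0, 85.0, 68.6 and 62.4. Their log2 fold changes went from 1.58 ± 0.56 to 0.10 ± 0.15 and from 0.77 ± 0.27 to 0.23 ± 0.11 on leaving it out.

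Psme3 was chosen after its values were seen, because the first mouse lay below the WT mice and the other hTau.P301S mice above them. In the other hTau.P301S mice it was at 110, 112 and 125 CPM against 97.7, 94.6, 88.7 and 88.2 in WT mice, without overlap, and the log2 fold change went from 0.16 ± 0.16 (adjusted p = 0.609, edgeR) to 0.32 ± 0.09 (adjusted p = 0.154). DESeq2 without replicate 1, an alternative added after seeing the data, gave adjusted p = 0.0285 with a fold change under the limit. Without replicate 1, 7 members were higher than in WT without overlap and 0 lower, beside 7.63% and 5.35% of all genes. With all mice these counts were 5 and 0, beside 3.45% and 2.85%. Psmb11, which had few counts, is among the 7 and the 5.

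Psmb11 had 16, 6, 19 and 3 counts in hTau.P301S mice, 12, 4, 1 and 5 in WT + NR and 9, 8, 16 and 7 in hTau.P301S + NR, against 2, 0, 0 and 1 in WT. It is the member with the smallest p between hTau.P301S and WT (adjusted p = 0.118, edgeR), but its fitted fold rests on 3 counts in the WT group and is not given. Counts like those in WT mice would not have passed the low-count filter, so Psmb11 was kept through the other groups. Its p against WT is therefore no support for a difference.

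The immunoproteasome subunits and their constitutive partners differed in how they followed the first mouse. Psmb8, the chymotrypsin-like cutting subunit, was at 39.7, 3.23, 4.85 and 1.99 CPM in hTau.P301S mice and 4.77, 6.22, 2.16 and 3.19 in WT mice. Apart from replicate 1 every hTau.P301S mouse lay within or under the WT range, and the log2 fold change went from 1.59 ± 0.73 (adjusted p = 0.273, edgeR) to -0.29 ± 0.41. For Psmb9 it went from 1.51 ± 0.59 to -0.04 ± 0.22, and for Psmb10 from 1.19 ± 0.51 to -0.02 ± 0.22. For the activator subunits Psme1 and Psme2, which interferon induces and which open the core gate, it went from 0.56 ± 0.36 to -0.10 ± 0.23 and from 0.80 ± 0.48 to -0.03 ± 0.35.

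Psmb5, which makes the chymotrypsin-like cut in the constitutive core, was at 410, 58.6, 83.3 and 55.4 CPM in hTau.P301S mice and 92.1, 105, 82.7 and 63.6 in WT mice. It was above the WT range in the first hTau.P301S mouse, within it in replicate 3 and below it in the other two. The log2 fold change went from 0.82 ± 0.49 (adjusted p = 0.369, edgeR) to -0.40 ± 0.19 without replicate 1 (adjusted p = 0.339). For Psmb6 it went from 1.23 ± 0.55 to -0.18 ± 0.20, and for Psmb7, the trypsin-like subunit, from 0.67 ± 0.37 to -0.11 ± 0.17.

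**Figure D3:**
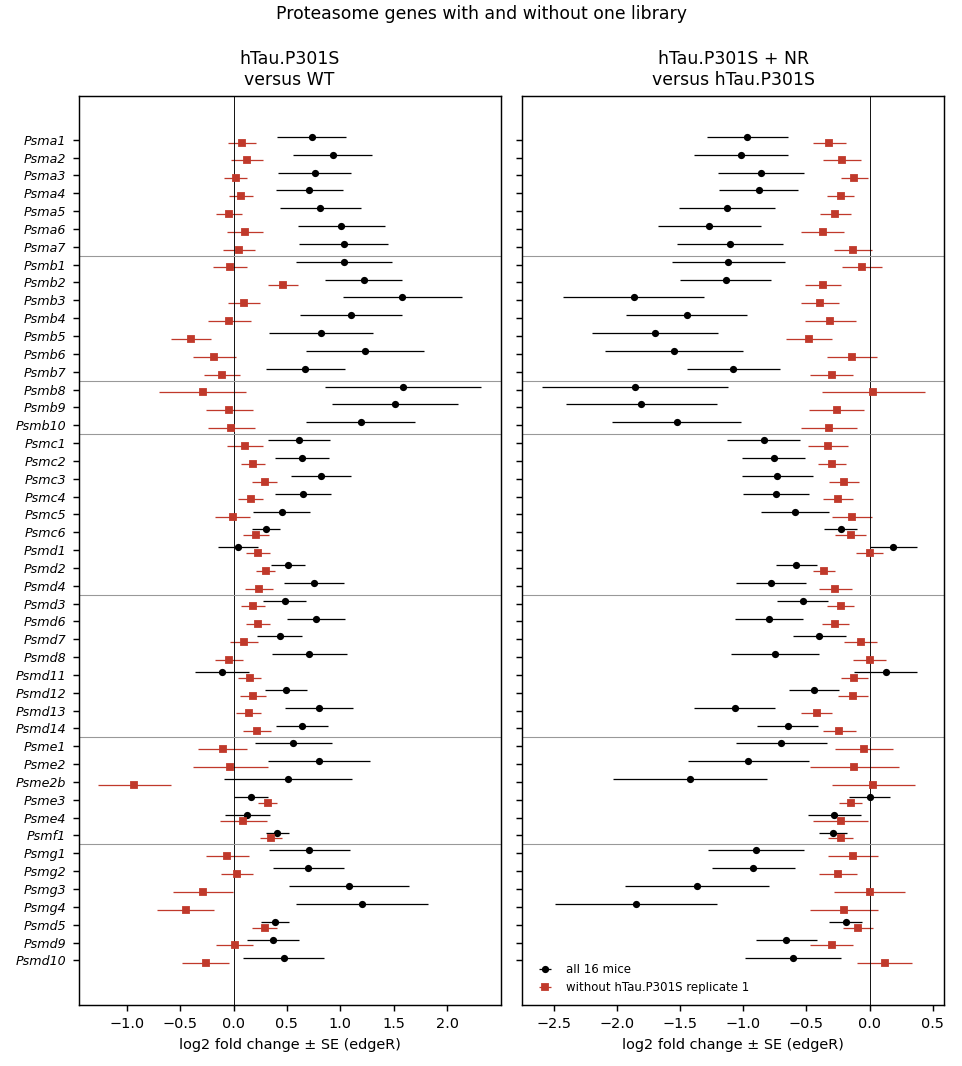
Log2 fold change with its SE for 47 proteasome genes (Psmb11 left out) for genotype without NR (hTau.P301S against WT, left) and for NR in the hTau.P301S genotype (right), over all 16 mice (black circles) and without hTau.P301S replicate 1 (red squares). Without that mouse the values at left gather near 0 and those at right mostly between 0 and -0.48.

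The second genotype comparison, hTau.P301S + NR against WT + NR, uses 8 other mice and not the library that stood apart. Here 32 of the 48 members were lower with the transgene, with a median log2 fold change of -0.09, against -0.02 over all genes. The edgeR test called no member, and 7 genes or 0.0399% of those tested. At p under 0.05 before adjustment there were 0 members, beside 0.741% of all genes higher and 1.13% lower, and DESeq2 also called 0. With hTau.P301S replicate 1 left out of the shared fit, 2 members were lower and 0 higher at that p, beside 3.51% and 2.32% of all genes (5.83% together), and still 0 were called, beside 0.0726%. All 7 alpha ring subunits were lower, with log2 fold changes from -0.24 to -0.05. Of the 14 constitutive core subunits, 13 were lower.

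Psmb5 stood out from the other core subunits in this comparison. It was at 37.0, 55.2, 43.7 and 51.4 CPM in hTau.P301S + NR mice and 69.6, 77.2, 85.1 and 79.7 in WT + NR mice, so that the highest treated hTau.P301S mouse lay under the lowest treated WT mouse. The log2 fold change was -0.73 ± 0.49 (adjusted p = 1, edgeR) in the fit over the 16 mice, whose spread is shared between groups, and -0.73 ± 0.17 (adjusted p = 0.343, edgeR) when that mouse was left out of the fit. DESeq2 without that mouse, an alternative added after seeing the data, called it (adjusted p = 0.0275), and its adjusted p ran from 0.0275 to 1 over the 23 alternatives. Psma5 and Psmb7 were also lower without overlap, at log2 fold changes of -0.24 ± 0.38 and -0.36 ± 0.37. That made 3 members lower and 0 higher without overlap, beside 2.14% and 1.63% of all genes.

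Against the mean of the other 13 constitutive core subunits of the same mouse, log2 CPM of Psmb5 was higher by 0.07 to 0.35 in the WT mice and between -0.09 and 0.24 in the WT + NR mice. It was between -0.48 and 0.01 in the hTau.P301S mice other than replicate 1, which was at 0.24, and between -0.68 and -0.30 in the hTau.P301S + NR mice. This within-mouse difference, chosen after the values were seen and not tested, was thus below that of every WT and WT + NR mouse in all hTau.P301S + NR mice. The annotated exon of Mir686 lies within Psmb5 for 109 bases, and that miRNA gene had 0 counts.

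**Figure D4:**
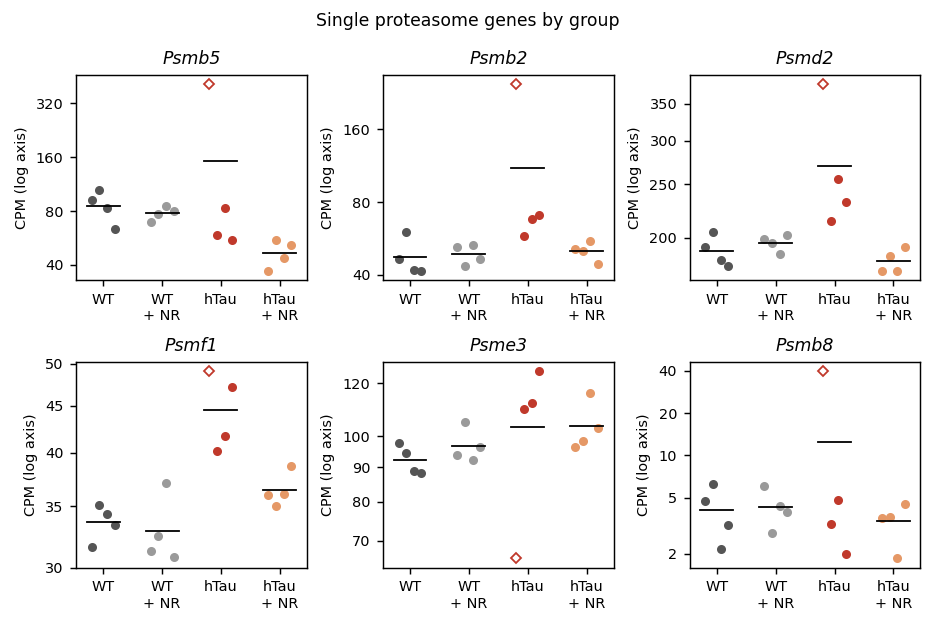
CPM on a log axis of 6 proteasome genes in each mouse of the 4 groups (hTau stands for hTau.P301S), with the group mean as a bar and hTau.P301S replicate 1 as an open diamond. Psmb5 is at 37.0 to 55.2 CPM in all hTau.P301S + NR mice and at 63.6 CPM or more in all WT and WT + NR mice, while Psmb8 overlaps between groups except for the diamond.

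The effect of NR was asked in each genotype. In WT mice, 33 of the 48 members were lower and 15 higher with NR, with a median log2 fold change of -0.03 against -0.00 over all genes. No member was called, as was no other gene (0%, 0 of 17555). At an unadjusted p under 0.05, only Psmb11, the member with few counts, was higher, beside 0.325% of all genes higher and 0.376% lower (0.701% together). Leaving hTau.P301S replicate 1 out of the shared fit kept this count at 1, beside 0.838% and 0.916% of all genes (1.75% together). No member was without overlap between the groups in either direction, beside 0.399% of all genes higher and 0.427% lower. Psmb8 was at 6.06, 2.79, 4.34 and 3.95 CPM with NR and 4.77, 6.22, 2.16 and 3.19 without, a log2 fold change of 0.07 ± 0.72. For Psmb9 it was 0.12 ± 0.59, for Psmb10 0.03 ± 0.50, for Psmb5 -0.14 ± 0.49, for Psmb6 -0.10 ± 0.54 and for Psmb7 -0.05 ± 0.37. Psme1 and Psme2 were at -0.16 ± 0.36 and -0.10 ± 0.48. DESeq2 also called 0 members in WT mice.

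In hTau.P301S mice, 45 of the 48 members were lower with NR, with a median log2 fold change of -0.85 against -0.02 over all genes. This comparison shares its 4 untreated hTau.P301S mice with the first one, so that replicate 1 enters both. No member was called, while 2 genes or 0.0114% were. At an unadjusted p under 0.05, 37 members were lower and 0 higher, beside 15.6% of all genes lower and 6.9% higher. Without replicate 1 the median was -0.22, against 0.01 over all genes, with 43 members lower. Then 11 were lower at that p and 0 higher, beside 5.49% of all genes lower and 6.36% higher, and 0 were called, beside 0.0112%.

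The NR difference kept its direction in most members without the first mouse. With and without it, 12 members were lower in every hTau.P301S + NR mouse than in any untreated one and 0 were higher. For all 12 the first mouse was the highest untreated one, so leaving it out could not make them overlap. Their lack of overlap is therefore no check on that mouse. The background for lower values was 5.28% of all genes with the mouse and 8.44% without it, and for higher values 6.5% and 8.46%. The 12 were Psma6, Psmb2, Psmb3 and Psmb5 of the core, Psmc2, Psmc4, Psmd2 and Psmd4 of the base, Psmd3, Psmd6 and Psmd13 of the lid, and Psmf1. None was an assembly chaperone or an immunoproteasome subunit. These classes hold 7 and 3 genes, too few for their absence to set them apart at this background.

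Psmd2 had the smallest p. It was at 174, 185, 174 and 192 CPM with NR and at 380, 214, 255 and 232 without. The log2 fold change was -0.58 ± 0.16 (adjusted p = 0.166, edgeR) and -0.36 ± 0.09 without replicate 1 (adjusted p = 0.247). With all mice DESeq2 called it (adjusted p = 0.0395), and over the 23 alternatives its adjusted p ran from 0.00688 to 0.367. The lowest of these, from DESeq2 without replicate 1, came with a fold change under the limit.

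Psmd13, a lid subunit, was at 48.3, 63.4, 49.7 and 58.4 CPM with NR and 241, 69.6, 80.6 and 71.8 without, and its log2 fold change was -1.07 ± 0.32 (adjusted p = 0.166, edgeR) and -0.42 ± 0.12 without replicate 1 (adjusted p = 0.26). Psmb5 lay below the untreated range in the same way, at a log2 fold change of -1.70 ± 0.50 and -0.48 ± 0.18 without that mouse. Psmb2 was at 51.4, 50.1, 55.0 and 44.5 CPM with NR, against 57.8 to 247 without, a log2 fold change of -1.14 ± 0.36 that became -0.37 ± 0.14. With NR, Psmb2 lay between 44.5 and 55.0 CPM, and in WT mice between 41.5 and 60.0.

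For Psmb3 the 2 values were -1.87 ± 0.56 and -0.39 ± 0.15, for the alpha subunit Psma6 -1.27 ± 0.41 and -0.37 ± 0.17, and for the ATPase Psmc2 -0.76 ± 0.25 and -0.30 ± 0.11. The immunoproteasome subunits stood closer to 0 without the first mouse. Psmb9 went from -1.81 ± 0.60 to -0.26 ± 0.22 and Psmb8 from -1.86 ± 0.74 to 0.03 ± 0.41. For Psmb10 the values were -1.53 ± 0.51 and -0.32 ± 0.22, for Psmb6 -1.55 ± 0.55 and -0.14 ± 0.20, and for Psmb7 -1.08 ± 0.37 and -0.30 ± 0.17. Psme1 went from -0.70 ± 0.36 to -0.04 ± 0.23 and Psme2 from -0.96 ± 0.48 to -0.12 ± 0.35. Psmb8 was at 3.59, 3.65, 1.85 and 4.47 CPM with NR, and at 2.16 to 6.22 CPM in WT mice.

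The test of the difference between the NR effects in the 2 genotypes called no member and no other gene (0%, edgeR), and DESeq2 called 0 members. The median over the members was -0.83 and -0.20 without replicate 1, and at an unadjusted p under 0.05 there were 9 members lower and 0 higher, beside 4.63% of all genes lower and 3.29% higher. Psmd2 was the first of them, at -0.63 ± 0.23 (adjusted p = 0.558, edgeR) and at -0.41 ± 0.12 without that mouse (adjusted p = 0.605), and only it and Psmb2 then had an unadjusted p under 0.05, beside 3.35% of all genes lower and 4.15% higher. Next by p over all mice were Psmb11, whose fold is not given, Psmb3, Psmb2, Psmb9, Psmb5, Psmb10 and Psmd13. On leaving out replicate 1, Psmb3 went from -1.83 ± 0.78 to -0.35 ± 0.21, Psmb2 from -1.18 ± 0.50 to -0.42 ± 0.19 and Psmb9 from -1.93 ± 0.83 to -0.38 ± 0.30. Psmb5 went from -1.55 ± 0.70 to -0.34 ± 0.25, Psmb10 from -1.56 ± 0.71 to -0.35 ± 0.29 and Psmd13 from -0.96 ± 0.45 to -0.30 ± 0.16. All of these were thus less than 0.5 from 0 without that mouse. Psmb8 was at -1.93 ± 1.03 and without replicate 1 at -0.04 ± 0.55, and Psmb6 at -1.45 ± 0.77 and -0.04 ± 0.27. Psmb7 went from -1.03 ± 0.53 to -0.25 ± 0.23, Psme1 from -0.54 ± 0.51 to 0.12 ± 0.31 and Psme2 from -0.86 ± 0.68 to -0.02 ± 0.48. A different NR effect in the genotypes was not shown for any single member.

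Genes that work beside the proteasome were read from lists. Of 12 proteasome-associated factors measured, 3 had a higher level with the transgene, without NR, at an unadjusted p under 0.05 and 0 a lower one, beside 10.9% and 7.24% of all genes. Without replicate 1 there were 3 and 1, beside 6.52% and 8.35%. The median log2 fold change was 0.26 and 0.12. Pomp, the chaperone that matures the core, was at 419, 55.7, 78.5 and 66.0 CPM in hTau.P301S mice against 58.6 to 103 in WT, and went from 0.97 ± 0.49 to -0.25 ± 0.17. Sem1, the smallest lid subunit, went from 0.76 ± 0.59 to -0.73 ± 0.29. Adrm1, a ubiquitin receptor of the base, was lower with NR in hTau.P301S mice, at 47.9, 62.2, 51.9 and 58.5 CPM against 168, 72.7, 81.7 and 62.8, without overlap, and its log2 fold change of -0.80 ± 0.24 (adjusted p = 0.166, edgeR) became -0.38 ± 0.13. In the test of the difference between the NR effects it was at -0.79 ± 0.34, and at -0.37 ± 0.18 without replicate 1.

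Nfe2l1, the transcription factor that raises proteasome genes when the proteasome is inhibited, was at 145, 348, 358 and 309 CPM in hTau.P301S mice and at 364, 311, 359 and 335 in WT mice. The first mouse was the lowest and the others lay near the WT range, and the log2 fold change went from -0.24 ± 0.22 to -0.02 ± 0.12. With NR it was 0.19 ± 0.22 in hTau.P301S mice, and -0.02 ± 0.12 without replicate 1. Of the 8 genes of transcriptional control, 1 was higher with the transgene at an unadjusted p under 0.05 and 0 lower, beside 10.9% and 7.24% of all genes. It was Maff, a small partner of NFE2L1, at 3.42, 8.05, 2.45 and 2.27 CPM against 1.59, 2.41, 0.686 and 1.57 (log2 fold change 1.37 ± 0.52, adjusted p = 0.237, edgeR, and 1.44 ± 0.55 without replicate 1). Without replicate 1 Mafk, another small Maf partner, passed that p too. That made 2 of the 8 higher and 0 lower, beside 6.52% and 8.35% of all genes. Mafk was at 27.8, 18.1 and 17.7 CPM against 17.6, 13.6, 13.5 and 13.5 in WT mice, without overlap, and at 8.21 CPM in replicate 1. For Mafk the log2 fold change was 0.30 ± 0.26 with all mice and 0.53 ± 0.18 without that mouse (adjusted p = 0.19, edgeR). With NR, Mafk was at 11.7, 14.9, 11 and 12.7 CPM in hTau.P301S mice, a log2 fold change of -0.51 ± 0.26 with all mice and of -0.74 ± 0.18 without overlap when replicate 1 was left out (adjusted p = 0.247, edgeR).

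All 4 ubiquitin genes were highest in hTau.P301S replicate 1. Rps27a, which encodes ubiquitin joined to a ribosomal protein, was at 1952 CPM in it and between 38.9 and 102 CPM in the other 15 mice. Its log2 fold change against WT was 2.88 ± 0.97 (adjusted p = 0.212, edgeR), and -0.28 ± 0.33 without replicate 1, and all 4 ubiquitin genes then had log2 fold changes below 0 (median -0.21). With NR in hTau.P301S mice Rps27a was at -3.48 ± 0.99 with all mice and at -0.32 ± 0.33 without that mouse. Of 14 ubiquitin-activating and delivery genes, 1 was higher with the transgene at an unadjusted p under 0.05 over all mice, beside 10.9% of all genes, and 5 were higher and 0 lower without replicate 1, beside 6.52% and 8.35%, with a median of 0.10 and 0.19.

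Genes of antigen presentation were read in the NR-treated mice too. Of 8 genes of antigen processing and MHC class I, whose peptides the immunoproteasome helps to make, 4 had a lower level with the transgene at an unadjusted p under 0.05 and 0 a higher one, beside 1.13% and 0.741% of all genes, with a median of -0.59. With hTau.P301S replicate 1 left out of the shared fit, 4 were again lower and 0 higher, beside 3.51% and 2.32% of all genes. The smallest adjusted p over these genes was then 0.178 (edgeR). In WT mice all 8 were higher with NR, with a median of 0.16 against -0.00 over all genes. Without NR the counts depended on hTau.P301S replicate 1. With it 0 were lower and 1 was higher, B2m, the light chain, at 569 CPM in that mouse and 112 to 121 CPM in the other 3 (1.2 ± 0.45, and 0.21 ± 0.21 without it), with a median of -0.17. Without it 2 were lower and 0 higher, beside 8.35% and 6.52%, with a median of -0.20: H2-D1 went from -0.49 ± 0.28 to -0.82 ± 0.24 and H2-K1 from -0.32 ± 0.34 to -0.78 ± 0.28. H2-D1, a class I heavy chain, was at 35.9, 32.5, 31.3 and 39.1 CPM against 87.1, 56.5, 71.2 and 77.8, without overlap (log2 fold change -1.08 ± 0.28, adjusted p = 1, edgeR). H2-K1 was at 27.9, 29.2, 23.6 and 32 CPM against 62.8, 39.8, 44.1 and 66.9 (-0.92 ± 0.34), and Tap1, which carries peptides into the endoplasmic reticulum, at 3.59, 4.23, 3.98 and 4.66 against 6.27, 5.57, 6.07 and 8.35 (-0.67 ± 0.26). Reads of one class I gene can map to another, so these 2 heavy chains are uncertain as single genes. None of these genes was called, nor was any of the 18 interferon response genes, which had 0 members at that p in either direction and a median of 0.05. In the NR comparison of hTau.P301S mice that list had 2 genes higher and 0 lower at that p, beside 6.9% and 15.6% of all genes, and 3 and 0 without replicate 1, beside 6.36% and 5.49%. Gbp3, an interferon-induced GTPase, was higher without overlap (0.78 ± 0.25, adjusted p = 0.166, edgeR, and 0.76 ± 0.26 without replicate 1).

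For the immunoproteasome in these NR-treated mice the log2 fold changes were -0.34 ± 0.73 for Psmb8, -0.42 ± 0.59 for Psmb9 and -0.37 ± 0.50 for Psmb10. With hTau.P301S replicate 1 left out of the shared fit they were -0.34 ± 0.37, -0.42 ± 0.20 and -0.37 ± 0.20 (adjusted p = 0.896, 0.835 and 0.835, edgeR). In the fit over all mice Psmb6 was at -0.22 ± 0.54, Psme1 at 0.02 ± 0.36 and Psme2 at -0.05 ± 0.48. Without replicate 1 in the fit their SEs were 0.19, 0.21 and 0.33. Tap1 and Psmb9 lie head to head on chromosome 17 on opposite strands and share 212 exonic bases in the annotation. Without stranded counting their reads cannot be told apart there. In all, 14 members share exonic bases with another gene, among them Psmd13 with Sirt3 (342 bases), Psmb7 with Nek6 (405) and Psmc3 with Slc39a13 (215), each on the opposite strand. Psme2b is a near copy of Psme2, and reads could be split between them. Without replicate 1, Psme2b was at 8.79, 5.61 and 3.99 CPM in hTau.P301S mice against 15.6, 13.4, 9.23 and 8.33 in WT mice (log2 fold change -0.93 ± 0.34, adjusted p = 0.224, edgeR), and Psme2 was at 6.09, 14.0 and 11.4 against 10.7, 16.6, 6.64 and 8.66.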

How the data were processed

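Hippocampal RNA of 16 mice was sequenced. The authors trimmed reads (FastQC, Trim Galore), aligned them to mm10 with STAR and counted them per gene with RSEM. They deposited raw counts per gene in whole numbers and a gene length column of other unit, in bases, which for 97.8% of genes equals the union of exons in GENCODE M21. Whether counting used strand is not given in the sources used here. Members and lists were chosen with earlier results of these data known.

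From the counts, CPM and log2 CPM were computed with TMM factors (edgeR 4.0.16, prior count 2, R 4.3.3). Genes passing filterByExpr over the 4 groups were tested with edgeR's quasi-likelihood test on all 16 mice, with groups as terms, in 5 comparisons, adjusted over all genes by Benjamini-Hochberg. A call needed an adjusted p under 0.05 and, for fold changes, a log2 fold change beyond 0.5. SE is the fold change over the square root of F. Named are members with a call or among the 8 smallest unadjusted p under 0.05 in a comparison, always Psmb5 to Psmb10 with Psme1 and Psme2, and the lowest and highest level per length. From the pathway lists those named are Nfe2l1, Adrm1, Sem1, Pomp and the 3 smallest p per comparison. Alternatives, DESeq2 1.42.0 among them, stand in the closing section. Scripts were tested on simulated data. Same-numbered mice did not pair: correlations of their deviations ran from -0.54 to 0.42, with 8 of 24 pairs over 0.1. Replicates are separate samples per the labels, and p-values measure the spread between them, pooled over all groups in the fit.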

Additional observations from a re-analysis of the deposited data

Results flagged for a closer look

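In groups of 4, a gap test for a lone sample (Dixon's ratio of the gap beside the outermost mouse to the whole range) was run on 7 class means and 18 named members in the 4 groups, 100 tests in all. Chance flags about 1 in 20 groups. It flagged 15, of which 13 were hTau.P301S replicate 1 as the high sample. For the class means of log2 CPM in hTau.P301S the ratios were 0.89 for the alpha ring, 0.88 for the beta ring, 0.83 for the immunoproteasome and 0.90 for activators and inhibitor. For single members in that mouse they were 0.88 for Psma6, 0.86 for Psmb2, 0.91 for Psmb3, 0.88 for Psmb6, 0.85 for Psmb9, 0.86 for Psmc2, 0.86 for Psmd6, 0.88 for Psmd13 and 0.86 for Psme1. In hTau.P301S + NR, replicate 2 was high in the alpha ring (0.85), and replicate 1 was low in Psmb7 (0.86), at 46.4 CPM against 59.6, 58.0 and 60.1.

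Outside the genes described, the pseudogene Psmb6-ps2 had 6 counts in hTau.P301S replicate 1, 1 count in WT + NR replicate 3 and 0 in the other mice. It is listed because the WT mice had 0. Psmb6 was at 543 CPM in that mouse.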

How the results depend on the processing

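For hTau.P301S against WT, with 0 members called, DESeq2 called 2 with all mice and 0 without hTau.P301S replicate 1, and each of the 2 length-trend removals called 1 with and without that mouse. The 29 members at an unadjusted p under 0.05 became 4 with library totals, 3 with only the 2 groups compared and 13 with the replicate block. With replicate 1 left out they became 11 (DESeq2), 11 (deposited length trend), 16 (mRNA length trend) and 5 (2 groups only), and the median of 0.71 became 0.08, 0.12, 0.15 and 0.08. Leaving out each mouse gave 9 to 39 members and medians of 0.08 to 0.91, and the lowest of each came from leaving out replicate 1. Shares of all genes are given only for the main fit with and without replicate 1, not for the other alternatives here and below. Counts under those alternatives therefore cannot tell a change in the members from one over all genes.

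For hTau.P301S + NR against WT + NR, DESeq2 without replicate 1 called 1. The 0 members at that p became 5 with only these groups and 1 with either length trend removed, and without replicate 1 they became 2 with DESeq2 and with either trend. Leaving out each mouse gave 0 to 2, with medians of -0.12 to -0.07.

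For NR in hTau.P301S mice, DESeq2 called 1. The 37 members became 23 with library totals and 15 with 2 groups only, and without replicate 1 they became 14 (DESeq2), 14, 18 (length trends) and 13 (2 groups). The median of -0.85 became -0.35 with the mRNA length trend removed, and without replicate 1 it became -0.23, -0.18, -0.18 and -0.23. Leaving out each mouse gave 11 to 41 and -1.01 to -0.22, and the value nearest 0 came without replicate 1.

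For NR in WT mice, the 1 member became 0 with a minimum of 10 counts in every mouse and with 2 groups only. Leaving out each mouse gave 0 to 1, with medians of -0.09 to 0.08. For the difference between the NR effects, the 9 members became 1 with library totals, 2 with the replicate block and 2 with DESeq2 without replicate 1. The median of -0.83 became -0.40 with the mRNA length trend removed and, without replicate 1, -0.20, -0.18 and -0.19. Leaving out each mouse gave 2 to 32 and -1.01 to -0.20. The cause of these moves was not tested.

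Mice share only replicate numbers across groups: 2 of 16 correlated best with their own number, and the replicate block called 0 members in every comparison. Library totals moved the median of all genes by -0.20 between hTau.P301S and WT and by 0.17 for NR in hTau.P301S mice, where the members' medians were 0.35 and -0.53. Of 1383 values of named members, 1306 kept direction and side of the threshold, 7 passed it anew and 70 had the opposite sign, 47 of these with hTau.P301S replicate 1 left out. None of the 70 was called. Members other than Psmb11 had at least 33 counts in every mouse.

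The values of opposite sign between hTau.P301S and WT came without replicate 1, from DESeq2, the deposited length trend, the mRNA length trend or 2 groups only. They were -0.29, -0.27, -0.23 and -0.29 for Psmb8, -0.39, -0.26, -0.25 and -0.39 for Psmb5 and -0.10, -0.11, -0.00 and -0.11 for Psmb7. Under DESeq2, the deposited length trend and 2 groups only they were -0.04, -0.05 and -0.04 for Psmb9, -0.18, -0.10 and -0.18 for Psmb6 and -0.10, -0.05 and -0.10 for Psme1. Under DESeq2 and 2 groups only, Psmb10 was at -0.02 and Psme2 at -0.03. For NR in hTau.P301S mice without replicate 1, Psmb8 was at 0.03 (DESeq2 and 2 groups only), 0.08 and 0.09 (length trends), and Psme1 at 0.01 and 0.00. In the difference of NR effects Psme1 was at 0.04 with the mRNA length trend removed and, without replicate 1, at 0.12 (DESeq2), 0.13 and 0.10. With NR in both genotypes Psme1 was at -0.00 with library totals and Psme2 at 0.03 and 0.07 with either trend removed, with or without replicate 1. For NR in WT mice Psmb7 was at 0.01 with the mRNA length trend removed, with or without it.

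Leaving out each mouse in turn, values between hTau.P301S and WT ran from -0.29 to 1.94 for Psmb8, -0.04 to 1.82 for Psmb9, -0.02 to 1.46 for Psmb10, -0.40 to 1.09 for Psmb5, -0.18 to 1.51 for Psmb6, -0.11 to 0.90 for Psmb7, -0.10 to 0.75 for Psme1 and -0.03 to 1.11 for Psme2, each below 0 only without replicate 1. With NR in both genotypes they ran from -0.09 to 0.22 for Psme1 and -0.23 to 0.11 for Psme2. For NR in hTau.P301S mice Psmb8 ran from -2.21 to 0.03. For NR in WT mice the ranges were -0.14 to 0.35 for Psmb8, -0.12 to 0.15 for Psmb10, -0.23 to 0.14 for Psmb6, -0.14 to 0.10 for Psmb7, -0.35 to 0.03 for Psme1 and -0.28 to 0.20 for Psme2. In the difference of NR effects Psme1 ran from -0.72 to 0.12.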
